A study of Mus musculus with 23 samples.

Results

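The mouse counterparts of 10 genes at or near human loci of Alzheimer's disease (AD) risk, whose products act outside lipid transport, were followed through 23 RNA-seq libraries of whole hippocampus. They were Bin1, Picalm, Cd2ap, Inpp5d, Ptk2b, Cntnap2, Mef2c, Fermt2, Celf1 and Echdc3, taken by symbol from the count table, where each matched 1 of 55335 genes. All 10 passed the filter on low counts in every comparison. Of these 10 genes, Cntnap2 was lower in the AD model strain at both ages and with or without the inhibitor, Fermt2 was higher over the whole set of libraries, and none differed with the inhibitor past an adjusted threshold.

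The 10 genes fall into a few known roles. Bin1, Picalm and Cd2ap encode proteins that shape or coat membranes during endocytosis or tie them to actin, the route by which neurons take up surface proteins such as the amyloid precursor. Inpp5d encodes SHIP1, a lipid phosphatase that brakes signals from immune receptors in microglia, and Ptk2b and Fermt2 encode Pyk2 and kindlin-2, which act in adhesion signalling. Cntnap2 encodes CASPR2, a neuronal adhesion protein that holds Kv1 potassium channels in place along axons, Mef2c a transcription factor of neurons and microglia, Celf1 an RNA-binding regulator of splicing and mRNA stability, and Echdc3 a protein of the enoyl-CoA hydratase family.

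The study asked how the hippocampus of the 3xTg mouse differs from that of a wild-type (WT) strain control, and what an inhibitor (SCDi) of stearoyl-CoA desaturase, which makes monounsaturated fatty acids, does in both. All mice were female. The 3xTg mouse carries a human APPSwe and a human tauP301L transgene, both under the Thy1.2 regulatory element that drives expression in neurons. These transgenes were introduced into mice homozygous for a PS1M146V knock-in mutation. The WT mice were of the related B6129SF2/J hybrid strain. Untreated mice of 8 months formed the groups WT-8M (n = 4) and 3xTg-8M (n = 4). Mice of 10 months, infused into the lateral ventricles for 28 days, formed the groups WT-D (n = 4) and 3xTg-D (n = 4), which received vehicle with 0.8% DMSO, and WT-S (n = 3) and 3xTg-S (n = 4), which received 80 µM of the SCD inhibitor ab142089 in that vehicle. The labels give each library its own animal number, so replicates are separate mice. Titles of the untreated libraries carry an L or l before HPP, those of the infused libraries do not, and the labels do not explain it.

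Levels are given in CPM, the count of a gene scaled to the same total of gene counts in every library, where a gene is compared between libraries, and per length as TPM where genes are compared with each other. Gene counts per library ran from 12.8M to 36.7M in the untreated and from 12.99M to 17.6M in the infused mice. Thy1, whose element drives the transgenes, was at 522 to 753 CPM in the WT and 1323 to 2263 CPM in the 3xTg libraries, as the strain labels require. Markers of neurons, astrocytes, oligodendrocytes and microglia were present in every group. For each library, the deviation of log2 expression from the gene's mean over all libraries was fitted on log2 transcript length. The slope was -0.111 in 3xTg-8M replicate 4 and -0.0810 in 3xTg-S replicate 2, against -0.0325 to 0.0451 in the other 21 libraries. Long transcripts were thus read less in these 2 libraries, and results that rest on them are given with and without them.

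The 10 genes spanned a wide range of levels. Per length, Ptk2b stood highest at 615 ± 60.0 TPM (SD over 23 libraries), above 99.1% of 16555 tested genes. Bin1 followed at 246 ± 13.3 TPM. Fermt2 at 96.0 ± 7.30 TPM, Celf1 at 95.3 ± 6.66 TPM and Mef2c at 91.1 ± 13.6 TPM lay close together: Fermt2 was above Celf1 in 14 of 23 libraries and Celf1 above Mef2c in 16, so these neighbours did not separate beyond the spread between libraries. Picalm was at 78.6 ± 5.29 TPM, below Mef2c in 21 libraries. Cntnap2 was at 50.02 ± 6.35 TPM, Cd2ap at 13.6 ± 1.42 TPM and Inpp5d, a gene of a minority cell type, at 6.47 ± 1.11 TPM. Echdc3 was lowest at 1.21 ± 0.328 TPM, above only 9.21% of tested genes, and its 6 to 27 counts per library limit every comparison of it. From Picalm downwards each gene was above the next in all 23 libraries.

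**Figure D1:**
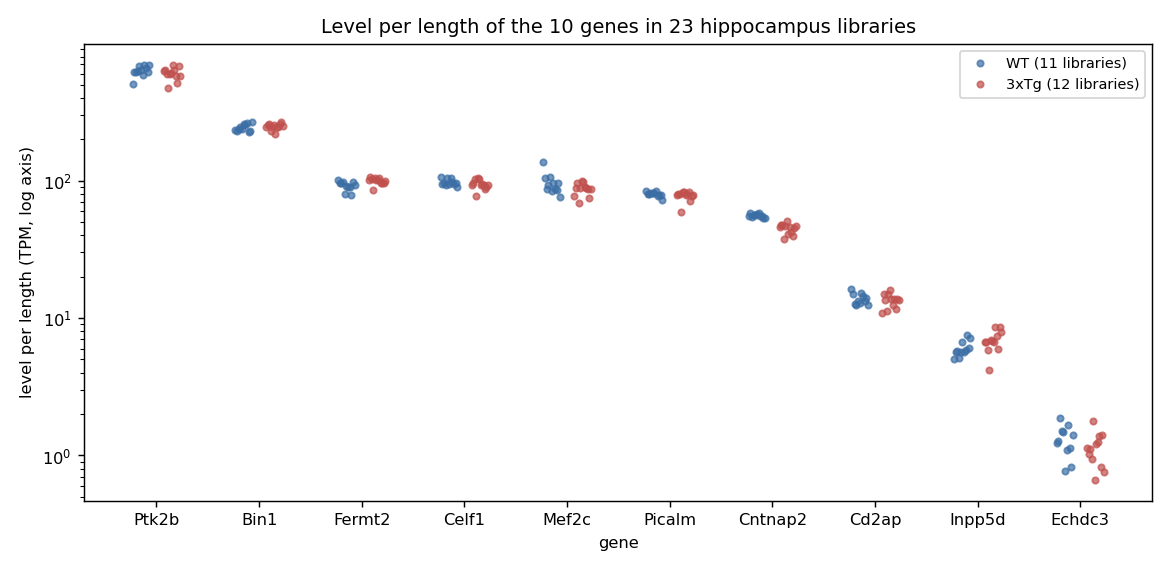
Level per length (TPM, log axis) of each of the 10 genes in the 11 WT libraries (blue) and the 12 3xTg libraries (red), 1 point per library. Levels fall from about 615 TPM for Ptk2b to 1.21 TPM for Echdc3, and Cntnap2 is the gene whose blue and red points do not mix.

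Cntnap2 was lower in 3xTg hippocampus in each of the 3 settings (untreated, vehicle, inhibitor). The gene (ENSMUSG00000039419.17, GRCm38 chromosome 6, 45059357 to 47304213, plus strand) spans 2245 kb, and its longest annotated transcript of 9827 nt is longer than 97.4% of those tested. At 8 months its level was 174, 188, 176 and 182 CPM in the WT-8M and 150.2, 154, 152 and 139 CPM in the 3xTg-8M libraries. At 10 months under vehicle it was 182, 184, 186 and 176.5 CPM in WT-D and 153, 161, 131.5 and 151 CPM in 3xTg-D. Under the inhibitor it was 181, 176 and 174 CPM in WT-S and 139, 137, 149 and 153 CPM in 3xTg-S. The groups did not overlap in any setting, which held for 11.1%, 7.28% and 10.6% of all genes in the 3 settings, and the lowest WT library (174 CPM) stood above the highest of the 12 3xTg libraries (161 CPM). Of 15194 genes tested in all 3 settings, 0.408% had every 3xTg library below every WT library, 62 genes with Cntnap2 among them.

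**Figure D2:**
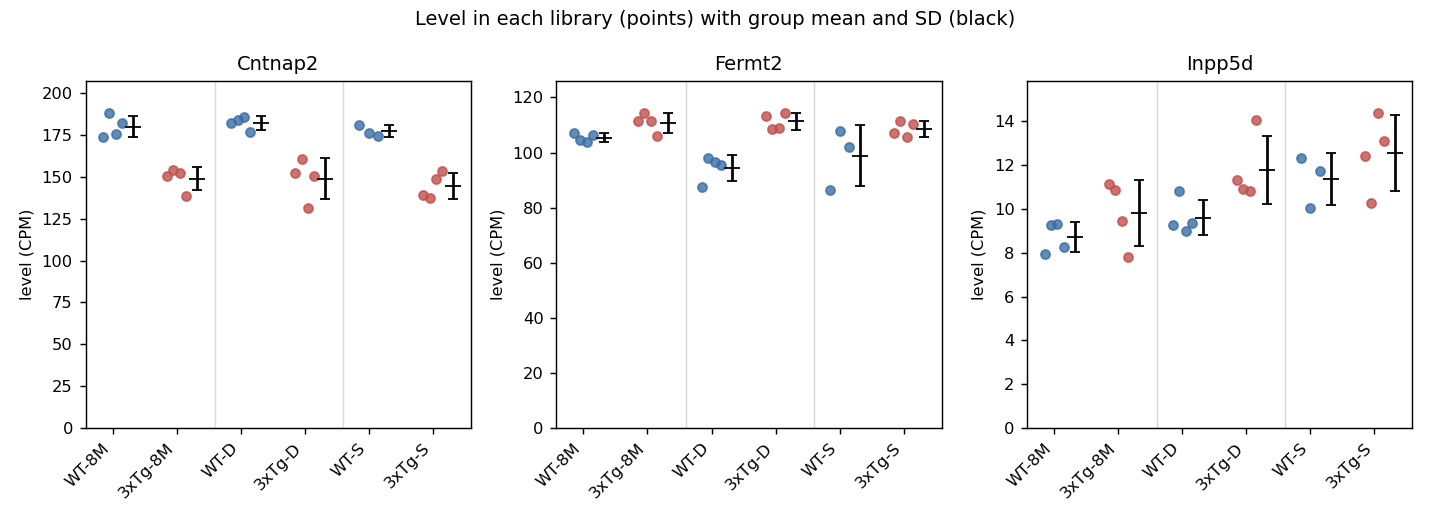
Level (CPM, axis from 0) of Cntnap2, Fermt2 and Inpp5d in each library by group, with the group mean and SD in black, WT in blue and 3xTg in red. All 12 3xTg libraries lie below 174 CPM for Cntnap2, while the strains overlap for Fermt2 outside the vehicle pair and for Inpp5d in all pairs but that one.

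In each setting the difference passed edgeR's quasi-likelihood test, which calls a gene at a Benjamini-Hochberg adjusted p under 0.05 over all genes tested. At 8 months its log2 fold change in 3xTg was -0.27 (SE 0.06, adjusted p 0.0238). It was the only one of the 10 genes called there, where 2.58% of all 15483 genes were called and 1.53% were called lower. Under vehicle the log2 fold change was -0.31 (SE 0.06, adjusted p 0.0367), in a comparison where 2 of the 10 genes and 1.39% of all genes were called. Under the inhibitor it was -0.30 (SE 0.06, adjusted p 0.0468), with 1 of the 10 genes and 1.32% of all genes called. These 3 comparisons share no library, and 0.303% of the 15194 genes were called lower in all of them. Fitted over all 23 libraries with the setting as a covariate, Cntnap2 fell by 18.2% in 3xTg (log2 fold change -0.29, SE 0.03, adjusted p 5.95e-07), where 2 of the 10 genes and 11.2% of all genes were called. The strain effect under vehicle minus that at 8 months was -0.03 on the log2 scale (95% interval -0.21 to 0.14) and was not called. Over the alternative fits it ran from -0.15 to 0.03. Age and infusion differ together in this contrast. In bulk tissue such as this, fewer cells of a type and less RNA per cell cannot be told apart. The calls within single settings lie near the threshold. Leaving out WT-8M replicate 2 or 4 or 3xTg-8M replicate 1 or 2 ended the 8-month call (adjusted p 0.0644 to 0.0897), leaving out WT-D replicate 1, 2 or 3 or 3xTg-D replicate 1 or 4 ended the vehicle call (0.0733 to 0.0867), and leaving out any 1 of the 7 libraries ended the inhibitor call (0.0669 to 0.204). The log2 fold change stayed between -0.34 and -0.23 in all these fits, and the call over all 23 libraries stood whichever library was left out (adjusted p at most 2.77e-06). Removing each library's trend with transcript length and GC ended the 8-month call (-0.18, adjusted p 0.239), while the call over all libraries stood (-0.25, adjusted p 1.44e-05).

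Genes that work with Cntnap2 were read from a list of 22 that holds the other CNTNAP genes, contactins, Kv1 channel subunits and their scaffold and LGI1-ADAM partners. Over all 23 libraries 8 of the 22 were called lower and 2 higher, where 5.85% of all genes were called lower and 5.33% higher. Their median log2 fold change was -0.10 against 0.00389 over all genes tested. Kcna4, a pore subunit of Kv1 channels, fell by 0.33 on the log2 scale (SE 0.07, adjusted p 0.00220). Epb41l3, the 4.1B scaffold that binds CASPR2 to the membrane skeleton, fell by 0.17 (SE 0.03, adjusted p 0.000468). The paralog Cntnap5c went the other way (0.55, SE 0.09, adjusted p 9.52e-05), from 11.8 ± 1.13 CPM in WT-S to 16.8 ± 3.23 CPM in 3xTg-S and with higher means in 3xTg in the other settings too. The other genes called lower were Cntnap5a, Ank3, Kcna2, Cntn1, Lgi1 and Adam23, and Cntn2 was called higher.

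**Figure D3:**
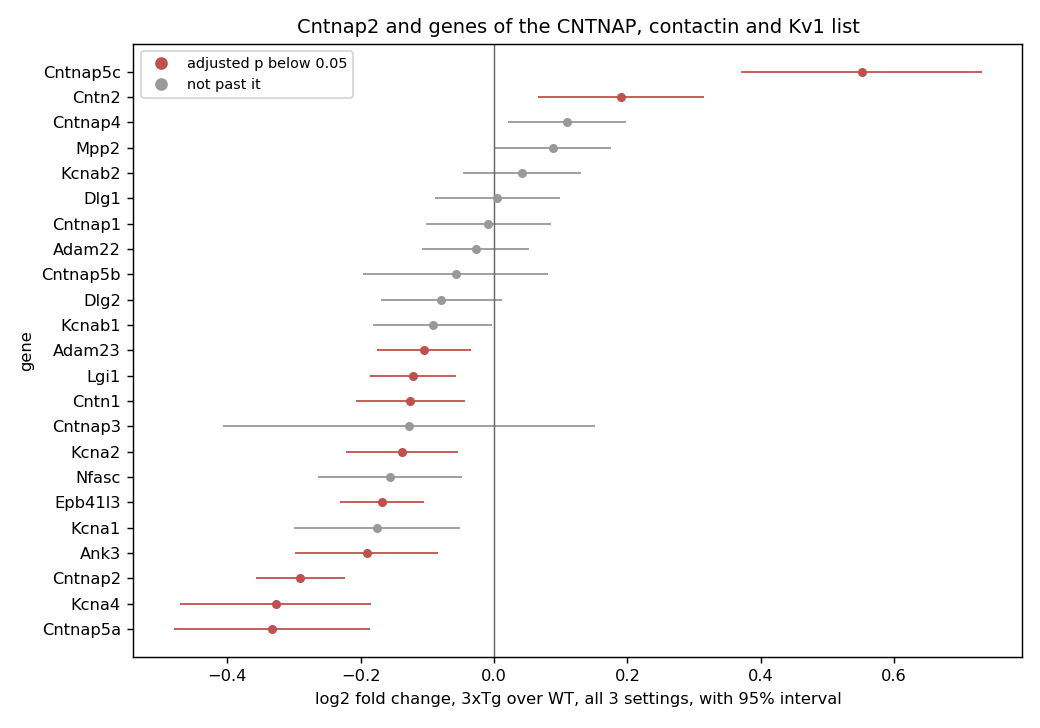
Log2 fold change of 3xTg over WT across all 23 libraries, with 95% interval, for Cntnap2 and the 22 genes of the CNTNAP, contactin and Kv1 list; red marks an adjusted p under 0.05. Cntnap2 at -0.29 lies near the low end beside Kcna4 and Cntnap5a, and Cntnap5c at 0.55 lies at the high end.

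This list's count moved with the 2 libraries of steep length trend. Without them 5 of its genes were called lower and 2 higher, all 7 of which were among the 10, and with the trend removed 9 were called lower and 3 higher, 9 of them shared. Within single settings 3 genes were called lower at 8 months (1.53% of all genes) and 1 higher under vehicle (0.638% of all genes). Under the inhibitor none was called, and 5 of the 22, and 10.6% of all genes, had an unadjusted p under 0.05. Markers of excitatory neurons, cells that express much of this list, showed no call by edgeR among 8 genes over all libraries, where 2 had an unadjusted p under 0.05 (24.1% of all genes) and the median log2 fold change was -0.03. In the vehicle pair all 8 were lower in 3xTg, with a median of -0.09 and 2 at an unadjusted p under 0.05 (13.1% of all genes), and none was called. Their summed level was 5037 to 7026 CPM in WT-8M and 5492 to 6502 CPM in 3xTg-8M, 6079 to 6838 CPM in WT-D and 5559 to 6489 CPM in 3xTg-D, and 6103 to 7144 CPM in WT-S and 5572 to 6695 CPM in 3xTg-S. Of 8 interneuron markers, Vip was called higher over all libraries (0.45, SE 0.11, adjusted p 0.00539), while 5 had negative values and the median was -0.03. Under vehicle Pvalb was called lower, with 26.6 ± 0.189 CPM in 3xTg-D against 33.7 ± 1.91 CPM for WT-D. In the other settings the Pvalb means lay close together. They were 31.4 ± 4.16 CPM in 3xTg-8M against 30.0 ± 2.80 CPM in WT-8M, and 32.7 ± 5.74 CPM in 3xTg-S against 33.5 ± 5.91 CPM in WT-S. The dentate granule cell gene C1ql2 fell by 1.28 (SE 0.07, adjusted p 4.45e-13). It is 1 of 10 hippocampal subfield genes, of which 3 were called lower and 1, Spink8, higher. The median log2 fold change of these 10 was -0.06. The part of the neuron markers and subfield genes in the Cntnap2 difference was not tested.

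Fermt2 was the only gene of the set called higher in 3xTg in the reported fits. The gene (ENSMUSG00000037712.16, chromosome 14, 45458795 to 45530118, minus strand) encodes kindlin-2, which binds integrins and switches them to their active state. At 8 months its level was 107, 105, 104 and 106 CPM in WT-8M and 111, 115, 111 and 106 CPM in 3xTg-8M, and the groups overlapped through 3xTg-8M replicate 4. Under vehicle it was 87.4, 98.2, 96.5 and 95.4 CPM in WT-D and 113, 108, 109 and 114 CPM in 3xTg-D, with no overlap. Under the inhibitor it was 86.4, 108 and 102 CPM in WT-S and 107, 112, 105.5 and 110.4 CPM in 3xTg-S, with WT-S replicate 2 above 2 of the 3xTg-S libraries. All 12 3xTg libraries were above the WT median of 102 CPM, and 3 of 11 WT libraries were above the lowest 3xTg library.

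Over all 23 libraries Fermt2 was 10.6% higher in 3xTg (log2 fold change 0.14, SE 0.03, adjusted p 0.00371). Within settings it was called under vehicle (0.22, SE 0.05, adjusted p 0.0490), where 0.638% of all genes were called higher, and not at 8 months (0.07, SE 0.05, adjusted p 0.497) or under the inhibitor (0.14, SE 0.07, adjusted p 0.580). The difference between the strain effects under vehicle and at 8 months was 0.15 (95% interval 0.02 to 0.29), with an unadjusted p of 0.0282 and an adjusted p of 0.486, so it was not called. An unadjusted p under 0.05 was found for 9.57% of all genes in that test. WT-D levels lay below all WT-8M levels while the 3xTg groups of the 2 ages overlapped. Age, infusion, separate preparation and whatever the L in the titles marks cannot be told apart in this. Leaving out any library of the vehicle pair but 3xTg-D replicate 3 raised the adjusted p there above 0.05 (0.0632 to 0.129, log2 fold change 0.20 to 0.25), while the call over all 23 libraries stood without any 1 of them (adjusted p at most 0.00886).

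A list of 24 genes of integrin adhesion and of the Src, Pyk2 and NMDA receptor signalling around it held 1 called gene. Parva, which encodes parvin, a partner of integrin-linked kinase, was called higher over all libraries (0.14, SE 0.04, adjusted p 0.0125), from 71.6 ± 2.71 CPM in WT-D to 81.0 ± 4.35 CPM in 3xTg-D. The other 23 were not called, and the median log2 fold change of the list was -0.02. The paralogs Fermt1 (-0.26, SE 0.22) and Fermt3 (0.14, SE 0.10) were among them. Of the astrocyte markers, a cell type that expresses Fermt2, Gfap (0.28, SE 0.08, adjusted p 0.0278) and Ntsr2 (0.12, SE 0.04, adjusted p 0.0375) were called higher and Slc4a4 lower (-0.16, SE 0.05, adjusted p 0.0435) of 12. Without the 2 libraries of steep length trend the Ntsr2 and Slc4a4 calls ended, and Gfap and Slc1a3 were called higher. The summed level of the 12 overlapped between the strains, at 5703 to 6374 CPM in WT and 5408 to 7007 CPM in 3xTg, and its part in the Fermt2 difference was not tested.

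Ptk2b, the other adhesion gene of the set, showed no called difference. The gene lies on chromosome 14 (66153257 to 66281052), and its kinase Pyk2 sits at synapses and answers to calcium and integrin signals. The level was 652 CPM in WT-8M replicate 1 and 815 to 832 CPM in the other WT-8M libraries, and 719 to 847 CPM in 3xTg-8M. At 10 months it was 770 to 933 CPM in WT and 722 to 924 CPM in 3xTg, with overlap in each pair. The log2 fold change over all libraries was -0.04 (95% interval -0.14 to 0.06).

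Inpp5d had a higher mean in 3xTg in each setting and did not pass the adjusted threshold. The gene (ENSMUSG00000026288.14, chromosome 1, 87620312 to 87720507) was read at 7.96, 9.26, 9.31 and 8.28 CPM in WT-8M and at 11.1, 10.9, 9.46 and 7.82 CPM in 3xTg-8M. Under vehicle it was at 9.27, 10.80, 9.01 and 9.34 CPM in WT-D and at 11.3, 10.9, 10.84 and 14.1 CPM in 3xTg-D. Under the inhibitor it was at 12.3, 10.03 and 11.8 CPM in WT-S and at 12.4, 10.3, 14.4 and 13.1 CPM in 3xTg-S. The groups were apart under vehicle by a narrow gap of 10.80 to 10.84 CPM, and 11 of 12 3xTg libraries were above the WT median. Groups that do not overlap were found for 7.28% of all genes in that pair.

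The log2 fold change of Inpp5d over all libraries was 0.21 (SE 0.07, adjusted p 0.0543), and the values within settings were 0.19 (SE 0.12, adjusted p 0.444) at 8 months, 0.28 (SE 0.11, adjusted p 0.316) under vehicle and 0.14 (SE 0.13, adjusted p 0.792) under the inhibitor. The 2 libraries of steep length trend held the lowest Inpp5d level of their groups, 7.82 and 10.3 CPM. Without them the value over all libraries was 0.27 (adjusted p 0.00532), and with the length trend removed it was 0.21 (adjusted p 0.0286), both past the threshold. With single libraries left out in turn its adjusted p ranged from 0.0209 to 0.110.

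Many other genes of microglia were higher in 3xTg. All 12 microglial markers had a positive log2 fold change over all libraries, with a median of 0.32, and 7 were called higher, with C1qa, C1qb, C1qc, Csf1r, Tmem119 and Trem2 among them. Their summed level was 383 to 445 CPM in WT-8M and 454 to 559 CPM in 3xTg-8M, 384 to 455 CPM in WT-D and 412 to 615 CPM in 3xTg-D, and 423 to 444 CPM in WT-S and 513 to 613 CPM in 3xTg-S. None of the 12 was at 0 in a group. Of 20 genes of microglial receptor signalling, in which SHIP1 acts, 6 were called higher and 1 lower. Over all libraries 5.33% of all genes were called higher and 5.85% lower. Csf1r stands in both of these microglial lists, so their counts are not separate. Tyrobp, the adaptor of TREM2, rose by 0.53 (SE 0.08, adjusted p 0.000105), from 7.44 ± 0.738 CPM in WT-8M to 10.996 ± 1.52 CPM in 3xTg-8M. The receptor Csf1r rose by 0.26 (SE 0.06, adjusted p 0.00491). Syk, Fcer1g and Rac2 were also called higher, and the adaptor Blnk was called lower. How much of the Inpp5d value follows the microglial marker level was not tested.

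**Figure D4:**
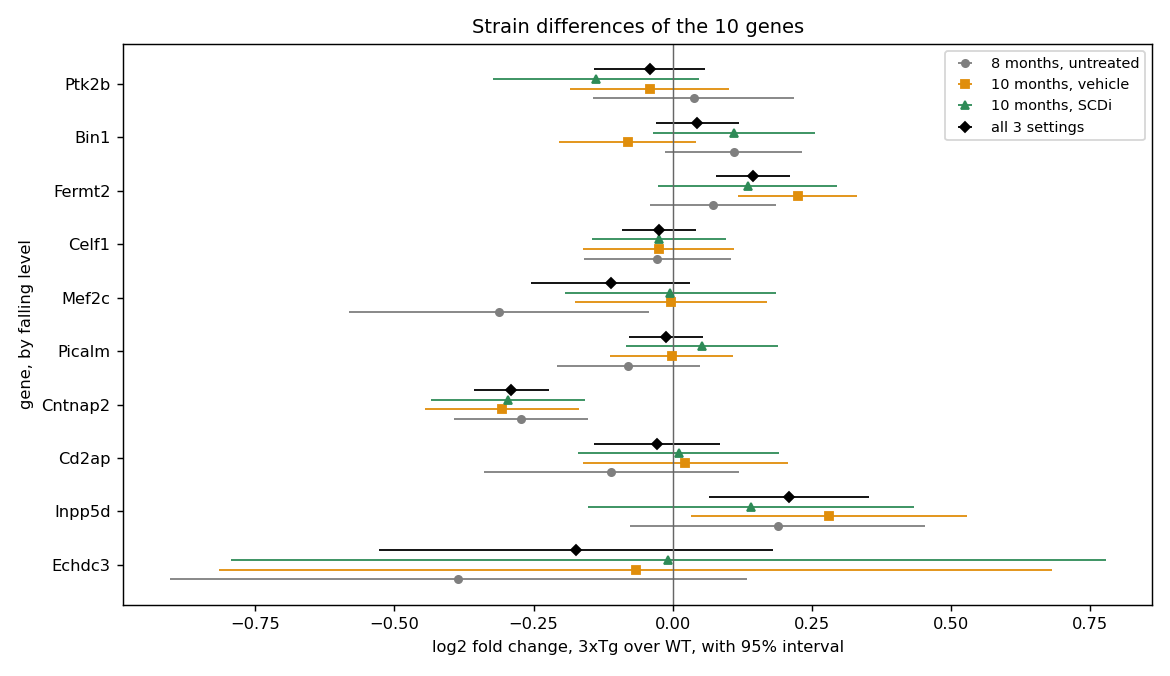
Log2 fold change of 3xTg over WT with 95% interval for each of the 10 genes at 8 months (grey), at 10 months under vehicle (orange) and under SCDi (green), and over all 23 libraries (black). The 4 intervals of Cntnap2 all lie below 0, those of Fermt2 lie above 0 under vehicle and over all libraries, and the intervals of Echdc3 are the widest.

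Bin1, Picalm and Cd2ap showed no called strain difference. Bin1, the amphiphysin family gene (ENSMUSG00000024381.16, chromosome 18, 32377230 to 32435737), was at 201, 204, 212 and 219 CPM in WT-8M and 221, 221, 226 and 232 CPM in 3xTg-8M, with no overlap. Groups that do not overlap were found for 11.1% of all genes at 8 months, and the log2 fold change of Bin1 was 0.11 (SE 0.06, adjusted p 0.340). Under vehicle it was at 211, 228, 221 and 228 CPM in WT-D and 218, 220.1, 191 and 218 CPM in 3xTg-D, with overlap and a difference of -0.08 on the log2 scale (SE 0.06, adjusted p 0.603). The strain effect under vehicle minus that at 8 months was -0.19 (95% interval -0.35 to -0.03, unadjusted p 0.0256, adjusted p 0.485), not called in a comparison where 0.0621% of all genes were. Of the exonic bases of Bin1, 256 (6.22%) lie opposite those of A830052D11Rik, and without a stated strand setting reads there cannot be told apart. In the annotation used here (Gencode M21), none of the other 9 genes shares exonic bases with another gene.

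Picalm, which recruits clathrin to the membrane (chromosome 7, 90130213 to 90213465), was at 216 to 221 CPM in WT-8M and at 215, 215.5, 213 and 183 CPM in 3xTg-8M. The lowest WT-8M library (215.53 CPM) was just above the highest 3xTg-8M library (215.51 CPM). Groups without overlap were found for 11.1% of all genes at 8 months. The log2 fold change of Picalm there was -0.08 (SE 0.06, adjusted p 0.507). Its low value came from the library of steep length trend. At 10 months Picalm ranged from 197 to 223 CPM in WT and from 204 to 228 CPM in 3xTg. Cd2ap, an adaptor between membranes and actin (chromosome 17, 42792951 to 42876665), was at 23.2 to 29.5 CPM in the WT and 20.5 to 29.1 CPM in the 3xTg libraries. Over all libraries the 95% intervals were -0.03 to 0.12 for Bin1, -0.08 to 0.05 for Picalm and -0.14 to 0.09 for Cd2ap. Of 30 further genes of clathrin-mediated endocytosis and actin capping, Capza1 was called (1.44, SE 0.13, adjusted p 5.41e-09), at 3.14 ± 0.311 CPM in WT-8M and 8.57 ± 1.29 CPM in 3xTg-8M. Its level is low for a subunit of a common actin capping protein, and whether copies of the gene take part of its reads was not tested, so its value is uncertain. The clathrin, AP2 adaptor, dynamin and endophilin genes were not called, and the median log2 fold change of the list was -0.00348. With the trend in length and GC removed 5 of the 30 were called, Capza1, Amph, Ap2a1, Bin3 and Itsn1.

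In the reported fit Mef2c was lower in 3xTg-8M at the unadjusted threshold only, and 1 WT library carried much of the difference. Without the filter on low counts Mef2c was called by edgeR (adjusted p 0.0496). The gene lies on chromosome 13 (83504034 to 83667080). Its level was 278, 217, 181 and 192 CPM in WT-8M and 161, 181, 197 and 161 CPM in 3xTg-8M, with overlap (log2 fold change -0.31, SE 0.12, unadjusted p 0.0271, adjusted p 0.227). An unadjusted p under 0.05 was found for 17.4% of all genes in that comparison. Without WT-8M replicate 1 the value was -0.17 (adjusted p 0.424). That library also had the lowest Ptk2b level of the 23, a summed oligodendrocyte marker level of 3450 CPM against 4778 to 6127 CPM in the rest of its group, and a summed excitatory neuron marker level of 5037 CPM against 6241 to 7026 CPM. The part of these in its Mef2c level was not tested. At 10 months Mef2c was at 160 to 220.1 CPM in WT and 159 to 200.4 CPM in 3xTg, and the log2 fold change was -0.00249 (SE 0.08) under vehicle and -0.00382 (SE 0.09) under the inhibitor.

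Of 12 tested partners and regulators of MEF2 factors, Camk4, a calcium-dependent kinase, was called lower over all libraries (-0.36, SE 0.08, adjusted p 0.00345). The paralogs Mef2a (-0.12, SE 0.04, adjusted p 0.0769) and Mef2d (-0.03, SE 0.04, adjusted p 0.691) were not called. The median of this list was -0.04.

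Celf1 showed no called difference between the strains. The gene lies on chromosome 2 (90940382 to 91019497). It was at 234 to 269 CPM in the WT and 228 to 272 CPM in the 3xTg libraries, and the log2 fold change was -0.03, -0.03 and -0.02 in the 3 settings and -0.02 over all libraries (95% interval -0.09 to 0.04). Of 13 other neuronal and CUG-binding RNA regulators, Celf6 was called higher (0.14, SE 0.04, adjusted p 0.0165), and Rbfox1 (-0.09, SE 0.03, adjusted p 0.0348) and Nova1 (-0.17, SE 0.05, adjusted p 0.0486) lower. Without the 2 libraries of steep length trend the Rbfox1 call ended, and with the trend in length and GC removed the Nova1 call did. Echdc3 (chromosome 2, 6188465 to 6213033) was at 0.736, 0.783, 1.13 and 0.924 CPM in WT-8M and 0.699, 0.625, 0.676 and 0.652 CPM in 3xTg-8M, without overlap. At 8 months 11.1% of all genes had groups that do not overlap. The log2 fold change of Echdc3 there was -0.39 (SE 0.24, adjusted p 0.475) and over all libraries -0.17 (95% interval -0.53 to 0.18). Neither difference was called, and Echdc3 had 6 to 27 counts per library. None of 12 genes of enoyl-CoA hydration and beta-oxidation was called over all libraries by edgeR, and 4 had an unadjusted p under 0.05, as had 24.1% of all genes.

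The inhibitor was compared with vehicle in each strain and over both. Of the 15530, 15724, 16262 and 16262 genes that passed the filter on low counts, none was called in 3xTg, in WT, over both strains or for the interaction, by edgeR's quasi-likelihood test. Without the filter 112, 2, 94 and 8 genes were called, none of them among the 10. An unadjusted p under 0.05 was found for 1733 genes (11.2%) in 3xTg, 538 (3.42%) in WT, 2209 (13.6%) over both strains and 377 (2.32%) for the interaction. DESeq2's likelihood ratio test called 15 genes in 3xTg, 0 in WT, 43 over both strains and 0 for the interaction, and none of the 10 genes was called by either tool. None of the 10 had an unadjusted p under 0.05 in 3xTg, in WT or over both strains.

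**Figure D5:**
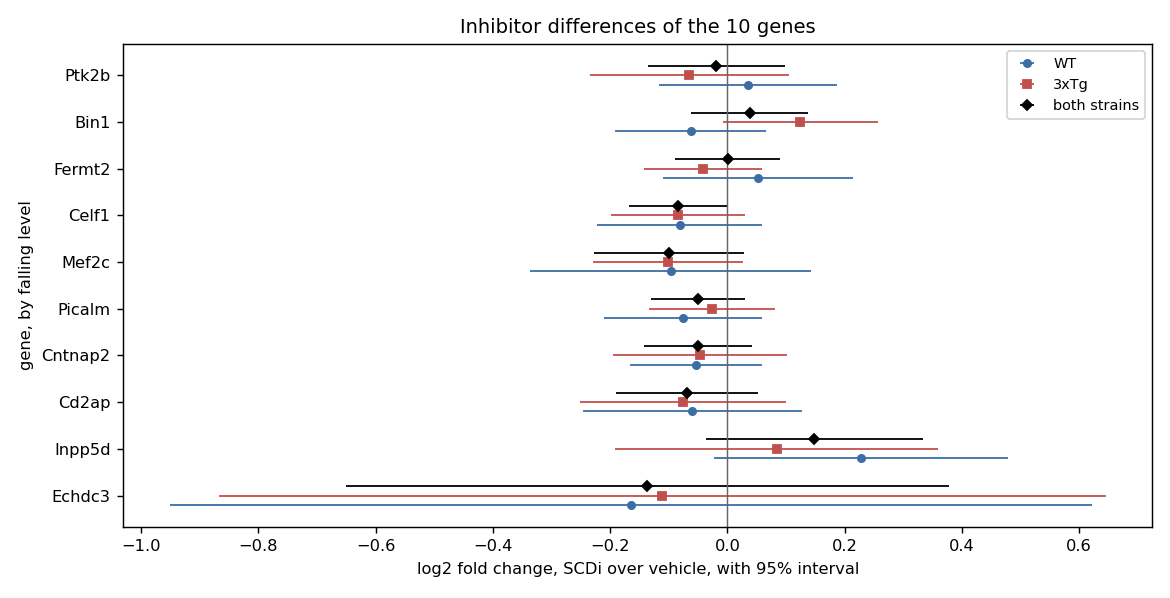
Log2 fold change of SCDi over vehicle with 95% interval for each of the 10 genes in WT (blue), in 3xTg (red) and over both strains (black). The intervals of all 10 genes include 0, and outside Inpp5d and Echdc3 those over both strains stay within -0.23 to 0.14.

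For Cntnap2 no shift with the inhibitor was found in either strain. Its log2 fold change with inhibitor was -0.05 in 3xTg (95% interval -0.19 to 0.10), -0.05 in WT (-0.17 to 0.06) and -0.05 over both strains (-0.14 to 0.04). With the trend in length and GC removed the sign turned, to 0.10 in 3xTg and 0.06 over both strains, again without a call. The 3xTg-S level stayed below that of WT-D, the group with vehicle only (-0.35, SE 0.06, adjusted p 0.00608), in a comparison where 2.29% of all genes and 1 of the 10 were called. That comparison shares its WT-D libraries with the vehicle comparison of the strains, where the value was -0.31. For Fermt2 the inhibitor value was -0.04 in 3xTg (95% interval -0.14 to 0.06) and 0.05 in WT (-0.11 to 0.21), and 3xTg-S stood above WT-D without overlap (0.19, SE 0.05, adjusted p 0.0763), where 10.1% of all genes had groups that do not overlap. For Inpp5d it was 0.08 in 3xTg (-0.19 to 0.36) and 0.23 in WT (-0.02 to 0.48), and 3xTg-S against WT-D gave 0.37 (SE 0.12, adjusted p 0.131).

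Bin1 was the 1 gene of the set whose treatment groups did not overlap. It was at 221, 244, 239.7 and 224 CPM in 3xTg-S against 218, 220.1, 191 and 218 CPM in 3xTg-D, a difference of 0.12 on the log2 scale (SE 0.06, adjusted p 0.468), where 6.89% of all genes showed groups that do not overlap. In 3xTg-D its replicate 3 was far below the rest, and that library also had the lowest summed level of the 12 oligodendrocyte markers of its group, 4073.5 CPM against 5398 to 6362 CPM. These sums were 6270 to 7293 CPM in 3xTg-S, and all 12 markers had a positive log2 fold change with the inhibitor in 3xTg (median 0.29), of which 5 had an unadjusted p under 0.05 and none was called. Their part in the Bin1 value was not tested. In WT it was at 201.5, 206 and 237 CPM with inhibitor against 211 to 228 CPM with vehicle (-0.06, SE 0.06). The interaction was 0.19 (95% interval 0.01 to 0.37, unadjusted p 0.0437), and its adjusted p was at 1.00. For Celf1 the value over both strains was -0.08 (95% interval -0.17 to 0.00, unadjusted p 0.0515, adjusted p 0.370). Picalm (-0.05), Cd2ap (-0.07), Ptk2b (-0.02) and Mef2c (-0.10) had intervals over both strains that include 0. With the trend in length and GC removed the value over both strains was 0.06 for Picalm (unadjusted p 0.0375, adjusted p 0.685), 0.04 for Cd2ap, -0.00303 for Mef2c and -0.00402 for Celf1, so the signs for Picalm and Cd2ap turned.

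Another 36 genes named at AD risk loci gave a background for the set, of which 33 were tested over all libraries. Of these, 3 were called higher and 5 lower. C4b, a complement component, rose by 0.80 (SE 0.12, adjusted p 6.10e-05), from 38.0 ± 7.68 CPM in WT-D to 77.5 ± 17.2 CPM in 3xTg-D. Adamts1, a secreted protease, fell by 0.43 (SE 0.07, adjusted p 0.000117), and Wwox, an oxidoreductase gene, by 0.98 (SE 0.16, adjusted p 0.000128). Trem2 and Abi3 were also called higher, and Blnk, Hs3st1 and Agfg2 lower, of which Trem2 and Blnk also stand in the microglial lists. Set against 11.2% of all genes, 2 of the 10 genes and 8 of the 33 were called, and whether these shares differ was not tested.

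The genes whose levels ran most like those of the 2 called genes over the 15 libraries of 10 months were named by Pearson's r of log2 CPM among the 11671 genes whose mean level reached 5 CPM. These correlations pool both strains and share library depth, so a gene that differs between strains in the same direction scores high. For Cntnap2 they were Serinc5 (r = 0.954), Me3 (0.937), which encodes a mitochondrial malic enzyme, Nav1 (0.927), Acsl6 (0.915), an acyl-CoA synthetase gene, and Pcdhga11 (0.909), against a median of -0.06 over all genes. All 5 were called lower in 3xTg over all 23 libraries, from -0.14 for Acsl6 to -2.31 for Pcdhga11, whose exons are partly shared with other protocadherin genes, so that its value is uncertain. None lies on chromosome 6 with Cntnap2. For Fermt2 they were Slc35f4 (r = 0.904), Trub1 (0.904), Tma7 (0.881), Cgrrf1 (0.880) and Asah1 (0.879), which encodes acid ceramidase, against a median of 0.05. The first 4 were called higher in 3xTg, and Asah1 was not (0.13, adjusted p 0.0823). Cgrrf1 and Slc35f4 start 1.37 and 3.84 Mb from Fermt2 on chromosome 14.

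Called genes near the 10 were counted within 1 Mb of each start, over all 23 libraries. Around the start of Cntnap2 no other gene was tested. That gene spans 2245 kb, so genes past its end lay outside the window. Around Inpp5d 0 of 15 tested genes were called by edgeR. Picalm had 4 called of 21, the nearest being Sytl2 (-0.29, SE 0.07, adjusted p 0.0079) at 172 kb and the predicted gene Gm45793 at 303 kb. Bin1 had 3 of 19, the nearest being Lims2 (-0.51, SE 0.10, adjusted p 0.000695) and Camk4 at 455 and 558 kb. Cd2ap had 1 of 10, Ptk2b 1 of 17 (Dpysl2), Mef2c 1 of 6, Fermt2 1 of 11 (Gm16439), Celf1 1 of 29 (Pacsin3) and Echdc3 1 of 10 (Upf2). In all, 13 of 138 neighbours were called, against 11.2% of all genes, and they lay beside 8 of the 10 genes.

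Markers of other cells the dissection could hold were read over all 23 libraries as well. By edgeR, Cldn11 was called higher of 12 oligodendrocyte markers, whose median log2 fold change was 0.14, and none of 8 precursor cell, 10 endothelial, 10 choroid plexus, 7 ependymal, 8 meningeal and 8 thalamic genes was called, with 2, 3, 0, 0, 0 and 3 of them at an unadjusted p under 0.05 (24.1% of all genes). Rgs9 was called lower of 8 striatal genes, and Hba-a1 and Hbb-bt higher of 5 red blood cell genes. Without the 2 libraries of steep length trend the Cldn11 and Hba-a1 calls ended. Of 10 hippocampal subfield genes, Spink8 was called higher and C1ql2, Prox1 and Wfs1 lower. None of the tested genes on these lists, nor on those above, was called with the inhibitor by edgeR after the filter. The part of these cell types in the differences of the 10 genes was not tested.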

How the data were processed

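Hippocampal RNA-seq libraries of 23 female mice were analysed as a table of raw read counts for 55335 genes. Per the labels and the study's methods, the authors trimmed single-end reads with Trimmomatic 0.35, aligned them with STAR 2.5.1b to GRCm38 and deposited unnormalised counts per gene. Use of the molecular identifiers and the strand setting in counting are not given in the sources used here. The 4 lines that name no gene held 24.7% to 30.9% of reads and were left out. Replicates correlated at r = 0.988 to 0.996 and no 2 libraries were identical.

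Genes were filtered by edgeR's filterByExpr, scaled by TMM and tested with the quasi-likelihood test of edgeR 4.0.16 in R 4.3.3, with Benjamini-Hochberg adjustment over all genes tested. SE is the log2 fold change divided by the root of F. Strains were compared at 8 months, under vehicle, under inhibitor, between 3xTg-S and WT-D, and over all libraries with the setting as covariate. Inhibitor and vehicle were compared in each strain, over both and as an interaction, and the strain effect was compared between vehicle and 8 months. TPM used the longest transcript of each gene. Alternatives were DESeq2 1.42.0 (size factors or likelihood ratio test), no filter, an unadjusted p under 0.01, offsets from a loess on length and GC, a replicate block, all libraries of 10 months in 1 fit, and each replicate left out. Fits without the libraries of steep length trend were chosen after seeing the data. The tests were tested on simulated counts.

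The 10 genes and all lists were chosen with earlier results of these data known. From each other list at most 3 called genes of smallest p over all libraries were given with values, and others by name. For called genes the 5 of highest correlation, and for each of the 10 at most 2 nearest called genes within 1 Mb, were named. Some items of the design and of the lists are not reported here. Intervals cover the spread between mice within groups, all female.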

Additional observations from a re-analysis of the deposited data

Results flagged for a closer look

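In 4 of the 50 groups of 4 values tested, 1 library lay far from the other 3 by Dixon's criterion, which chance meets in about 1 group in 20. Bin1 was at 190.95 CPM in 3xTg-D replicate 3 against 218 to 220.1 CPM in the rest of its group, and the separation of 3xTg-S from 3xTg-D for this gene is seen beside that low value. The same library had the lowest summed oligodendrocyte marker level of its group, 4073.5 CPM against 5398 to 6362 CPM. Picalm was at 182.88 CPM in 3xTg-8M replicate 4 against 213.2 to 215.5 CPM, in the library with the steepest length trend. Inpp5d was at 14.081 CPM in 3xTg-D replicate 4 against 10.84 to 11.32 CPM, and without that library its vehicle difference was 0.18 on the log2 scale (edgeR adjusted p 0.507). Ptk2b was at 651.9 CPM in WT-8M replicate 1 against 815.5 to 831.9 CPM, in the library that also held the highest Mef2c level. What set these libraries apart was not tested.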

How the results depend on the processing

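The lower Cntnap2 and the higher Fermt2 level over all 23 libraries were called by adjusted p in all 29 alternative fits, from -0.30 to -0.25 and from 0.12 to 0.16 on the log2 scale. Of the 10 genes, 1 was called at 8 months, and 2 without a filter on low counts (Cntnap2 and Mef2c), 0 with the trend in length and GC removed, and 0 to 1 with single replicates left out. Under vehicle 2 were called, and 1 in a single fit of the 15 libraries of 10 months and 0 to 2 with replicates left out. Under the inhibitor 1 was called, and 0 with DESeq2 size factors and 0 whichever replicate was left out. Between 3xTg-S and WT-D 1 was called, and 2 by DESeq2's likelihood ratio test, 3 at an unadjusted p under 0.01, 2 without 3xTg-S replicate 2, and 1 to 2 over all single replicates left out. The counts of called genes of the other comparisons stayed at their values or within 1.5 times them, and the causes were not tested.

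The titles number the infused animals in runs of 4. The labels do not say that a run marks a batch, and deviations of libraries from the same run correlated at a median of 0.0149 (21 pairs) against -0.00362 for different runs (63 pairs), so the runs were not taken as pairs. With the run as a replicate block 0 of the 10 genes were called under vehicle and 0 under the inhibitor, where Cntnap2 was at -0.31 (adjusted p 0.0688) and -0.28 (adjusted p 0.410).

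Over all genes, calls by adjusted p at 8 months ran from 227 to 854 (399 in the reported fit), under vehicle from 125 to 792 (216) and under the inhibitor from 78 to 729 (206). Between 3xTg-S and WT-D they ran from 155 to 1135 (356), for the strain effect across ages from 6 to 33 (10) and for the inhibitor in 3xTg from 0 to 112 (0). At an unadjusted p under 0.01 the counts were 1066 at 8 months, 352 for the strain effect across ages and 391 for the inhibitor in 3xTg. No value with an unadjusted p under 0.05 changed sign among 15, while 46 of the other 85 did, all of at most 0.165 on the log2 scale. Depth limits Echdc3, at 6 to 27 counts per library.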

Other observations

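The level of Wwox, an oxidoreductase gene named at an AD risk locus, varied widely among the WT libraries of 10 months. Its level was 35.5 to 43.3 CPM in WT-8M, 16.8 to 41.3 CPM in WT-D and 16.3 to 42.3 CPM in WT-S, and 12.8 to 20.8 CPM over the 3xTg groups. The WT libraries of 10 months thus spanned both levels, and this gene was singled out after its values were seen.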
